A study of Mus musculus with 19 samples.

Results

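The 9 genes described here make, break down, sense or bind retinoic acid, and they were taken by name from the 54179 genes of the deposited count table. Aldh1a1, Aldh1a2 and Aldh1a3 encode the retinaldehyde dehydrogenases that carry out the last step of retinoic acid synthesis. Cyp26a1, Cyp26b1 and Cyp26c1 encode the cytochrome P450 enzymes that break retinoic acid down. Rarb encodes retinoic acid receptor beta, and Crabp1 and Crabp2 encode the cellular proteins that bind retinoic acid. The cells were single EPCAM+PLET1+ cells of wild type mouse thymic primordia, sorted at E10.5 or at E12.5 into the wells of 96-well plates, and the labels call them thymic epithelial progenitors. The sources used here do not say how many embryos stand behind a plate, so p-values measure the spread between plates, which may in part be technical. The table holds 4 plates per stage, which the labels letter a to d for E10.5 and a, c, d, e for E12.5. After filtering, 356 and 355 cells remained.

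Retinoic acid is made from vitamin A by successive oxidations, from retinol to retinaldehyde and from retinaldehyde to the acid. It enters the nucleus, binds receptors of the RAR family that sit on DNA together with RXR partners, and changes transcription of nearby genes, among them Hox genes, Cyp26a1 and Rarb itself. In embryos it spreads between cells, so that tissues with Aldh1a enzymes act as sources and tissues with Cyp26 enzymes as sinks, and the pharyngeal pouches, from which thymus and parathyroid arise, depend on it.

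Receptors of the RAR family bind pairs of short repeats in DNA, and 2 of the 9 genes carry such a pair close to their transcription start. RefSeq promoter windows of build GRCm38.p6, which run from 250 bases before to 50 bases after a start, were available for 7 of the 9 genes. They were searched on both strands for 2 half-sites in the same orientation with a spacer of 5 bases, where a half-site was AGGTCA or GGGTCA or AGTTCA or GGTTCA. Such a pair occurred in 32 of 32851 windows (0.0974%), and 2 of these windows belonged to Rarb and Cyp26a1. No window of the 9 genes held a pair with a spacer of 1 or 2 bases, which occurred in 0.222% and 0.268% of all windows. The matches are shown because Rarb and Cyp26a1 are commonly used as readouts of retinoic acid, and a match is a description of the letters only. Each is written 5′ to 3′ on the strand of its gene with 6 flanking bases on each side, and capitals mark the half-sites.
Rarb, chr14:16575507-16575535, minus strand: gggaagGGTTCAccgaaAGTTCActcgca
Cyp26a1, chr19:37697770-37697798, plus strand: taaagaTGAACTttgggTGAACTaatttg
The Rarb pair lay 53 to 37 bases before the transcription start that RefSeq gives, which lies inside the longer Rarb gene model given below and not at that model's 5′ end. The Cyp26a1 pair lay 32 to 16 bases before the transcription start that RefSeq gives, which is also not the 5′ end of the Cyp26a1 gene model given below. It reads on the opposite strand as AGTTCA at both half-sites.

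On GRCm38 (GENCODE vM21) Aldh1a1 lies at chr19:20492715-20643465, Aldh1a2 at chr9:71215789-71296243 and Aldh1a3 at chr7:66390890-66427517. Cyp26c1 (chr19:37685581-37693398) and Cyp26a1 (chr19:37697798-37701536) are neighbours on the plus strand, 4399 bases apart, and Cyp26b1 lies at chr6:84571414-84593908. Rarb spans chr14:16430839-16819156, Crabp1 chr9:54764748-54773110 and Crabp2 chr3:87948666-87953376. Rarb overlaps Top2b on the other strand, and Aldh1a1 and Aldh1a2 overlap gene models on the other strand. Whether reads were counted by strand is not given in the sources used here, and counts of these 3 genes could include reads of those partners.

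Plates held between 85 and 92 cells. Summed reads on protein-coding genes, the depth behind every value in CPM (reads scaled to the same total in each plate), were between 11674156 and 17545016 per plate. Molecules per cell varied more, with plate medians from 2598 in plate a of E10.5 to 10841 in plate e of E12.5. Of the sorted markers, Epcam stood at 450 ± 30.4 CPM at E10.5 and 495 ± 219 CPM at E12.5, and Plet1 at 316 ± 63.6 and 75.5 ± 35.9 CPM (SD, n = 4 plates each). Foxn1, the master regulator of thymic epithelium, was at 0.671 ± 0.716 CPM in the E10.5 plates and 212 ± 47.5 CPM in the others. Clustering without the genes described here gave 8 clusters, a number set by raising the resolution until at least 8 were reached. At E12.5, 153 and 111 cells fell in a pair of cTEC-like clusters (cortical thymic epithelial cells), 29 were mTEC progenitor-like (medullary) and 42 parathyroid-like. At E10.5, 83 cells were neural-like and 273 fell in clusters 1, 4 and 5, which were left unnamed. Cluster 5 came mostly from the shallow plate a. The summed level of 8 mesenchyme markers was 60.8 to 172 CPM per plate at E10.5 and 7.23 to 47.9 CPM at E12.5, with Col3a1 at 0 at E10.5 and Prrx1 at 0 at E12.5. The 4 endothelial markers summed to 3.76 to 25.0 and 0.057 to 0.137 CPM, with Cdh5 and Tie1 at 0 at both stages, and the 3 mesothelial markers, Wt1, Upk3b and Msln, to 0 at E10.5. Blood markers summed to 1.88 to 7.32 and 0 to 30.5 CPM, and neural crest and glia markers to 7.52 to 15.9 and 6.45 to 27.5 CPM, with Foxd3 at 0. The part of such cells in the results below was not tested.

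The comparison of E12.5 with E10.5 asks which arms of the retinoic acid system changed as the pouch became a thymus. Aldh1a1 and Crabp1 were far lower at E12.5 and Cyp26b1 was higher. Crabp2 was carried by most cells at both stages. The remaining 5 genes were found in few cells at either stage. By edgeR's quasi-likelihood test on plate sums, with Benjamini-Hochberg adjustment over 11499 genes, 3 of the 7 genes that passed the filter on low counts were called, 1 higher and 2 lower at E12.5. Over all genes tested 6.24% were called, 3.8% higher and 2.44% lower. Levels of those 3 genes did not overlap between the 4 plates of each stage in the table, which held for 14.4% of all genes tested. Fewer cells of a kind and less RNA per cell cannot be told apart in plate sums, and shares of cells are given for that reason.

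**Figure D1:**
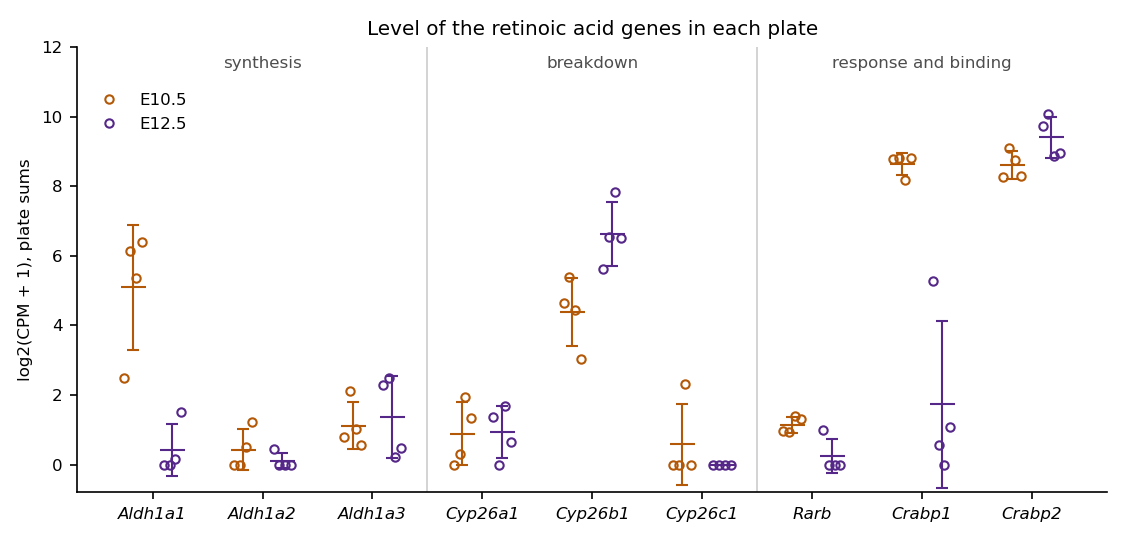
Level of each gene in each plate as log2(CPM + 1), with open circles for plates and bars for the mean ± SD of 4 plates per stage. The tabled plates of the 2 stages are separate for Aldh1a1, Cyp26b1 and Crabp1 and overlap for the other genes.

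At E10.5 Aldh1a1 was the synthesis enzyme with the highest level, and nearly all of its reads were at that stage. Its molecules were found in 17 cells at E10.5 and 1 at E12.5. Its level was 4.61, 68.9, 40.2 and 83.3 CPM in plates a, b, c and d of E10.5. At E12.5 it was listed at 0 in plates a and c and stood at 0.114 CPM in plate d and 1.87 CPM in plate e. Among these 8 plates the lowest E10.5 plate was above the highest E12.5 plate. A further E12.5 plate, b, which had 1 run and is not in the table, was at 7.35 CPM, above the lowest first run of E10.5 at 3.35 CPM, and with it in a fit of first runs the log2 fold change was -4.86 (adjusted p = 0.0464). The means were 49.2 ± 34.7 and 0.496 ± 0.918 CPM (SD, n = 4 plates each), and the log2 fold change was -6.65 ± 1.50 (SE, edgeR, adjusted p = 0.0221). The call was lost without plate b or plate d of E10.5 and without plate d of E12.5, where the adjusted p was 0.0592, 0.0637 and 0.0660. Without plate e of E12.5 the log2 fold change was -10.17 (adjusted p = 0.00309).

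Most Aldh1a1 molecules lay in 7 cells, a count made after the values were seen. Of 250 molecules at E10.5, 230 (92%) were in 7 cells with 23 to 52 molecules each, while the next cell had 4. Plate b held 3 of these cells, plates c and d held 2 each, and plate a none. Of the 7 cells, 6 were in cluster 1 and 1 in cluster 4. All 7 had a molecule of Crabp2 and 3 had one of Crabp1. The other 10 cells with a molecule had between 1 and 4. Many further wells held a few reads without a molecule after error correction of the molecular indices: 59 E10.5 cells had at least 1 read and 42 of these had 1 to 4 reads, while 17 had at least 5 reads and the same number had a molecule. Plate b, with 25 of the 42, reached 35.2% of cells with a read but 7.69% with a molecule. In the neural-like cells 11 of 85 had a read and none a molecule. The source of the low read numbers was not tested, and shares are given below under both rules.

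Aldh1a2 and Aldh1a3 were rare at both stages. Aldh1a2, the main synthesis enzyme of embryonic mesoderm, was at 0, 0, 0.428 and 1.32 CPM in the E10.5 plates and was listed at 0 in every E12.5 plate except plate a, at 0.366 CPM. A molecule was found in 5 of 356 and 4 of 355 cells (1.40% and 1.13%, exact 95% intervals 0.458% to 3.25% and 0.308% to 2.86%), and the gene did not pass the filter. Aldh1a3 was at 0.716, 3.32, 1.03 and 0.487 CPM in the E10.5 plates and at 3.90, 4.59, 0.171 and 0.387 CPM at E12.5. The stages overlapped, with a log2 fold change of 0.51 ± 1.28 (SE, edgeR, adjusted p = 0.892). Cells with a molecule of Aldh1a3 numbered 10 at E10.5 and 7 at E12.5, and 4 of the latter were parathyroid-like. Intervals cover counting error only.

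Cyp26b1 was the breakdown enzyme of the E12.5 cells. In plates a to d of E10.5 its level was 23.9, 41.3, 20.7 and 7.24 CPM, and it reached 47.9, 91.6, 227 and 90.4 CPM in plates a, c, d and e of E12.5. Among these 8 plates the E12.5 levels were all above the E10.5 levels, with plate a of E12.5 close to plate b of E10.5. The untabled plate b of E12.5 was at 23.6 CPM, within the 7.97 to 42.2 CPM of the E10.5 first runs, and a fit of first runs that included it lost the call (adjusted p = 0.0697). The means were 23.3 ± 14.0 and 114 ± 77.9 CPM (SD, n = 4 plates each), so that the log2 fold change came to 2.29 ± 0.58 (SE, edgeR, adjusted p = 0.0390). Cells with a molecule numbered 1, 8, 2 and 4 in the E10.5 plates and 10, 11, 12 and 14 in the E12.5 plates, in all 15 of 356 (4.21%, 95% interval 2.38% to 6.85%) and 47 of 355 (13.2%, 9.89% to 17.2%). Per positive cell the molecules were few, with a median of 2 at both stages and at most 7 and 9. These are sums over 2 runs, in which 1 molecule can count in both. The call held in 8 of 18 alternatives and was lost, for example, without plate d of E12.5 (adjusted p = 0.122) and with all genes of the table in the fit (0.0676), and the log2 fold change was between 1.70 and 2.77 when single plates were left out.

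Cyp26a1 and Cyp26c1, the other two breakdown enzymes, were near the limit of detection. Cyp26a1, which carries the repeat pair shown above and is induced by retinoic acid, was at 0, 0.226, 2.83 and 1.53 CPM in the E10.5 plates and at 1.58, 0, 2.22 and 0.581 CPM at E12.5. Its plates overlapped, with a log2 fold change of -0.19 ± 1.62 (SE, edgeR, adjusted p = 0.975), and 7 and 3 cells held a molecule. Cyp26c1 was found in 1 cell of plate c at E10.5, with 47 reads and 2 molecules, and this cell also held Cyp26a1 molecules. At E12.5 a molecule was found in 0 of 355 cells, which allows up to 0.845% of cells with a detected molecule and does not limit the share that expressed the gene.

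**Figure D2:**
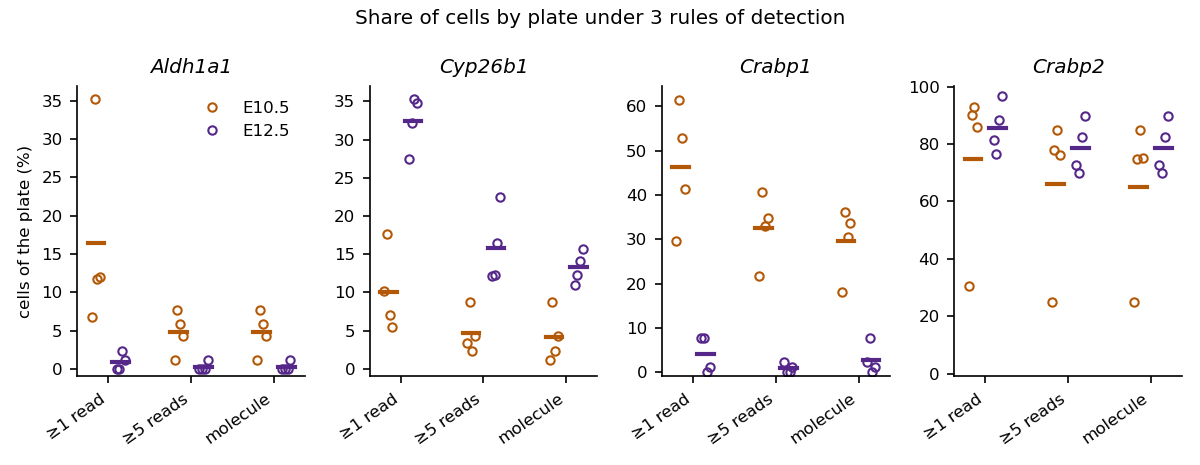
Percent of the cells of each plate in which Aldh1a1, Cyp26b1, Crabp1 or Crabp2 was detected, under 3 rules: at least 1 read, at least 5 reads, or at least 1 molecule after error correction. Circles are plates and bars are means of 4 plates. The share of Aldh1a1 in plate b of E10.5 falls from 35.2% to 7.69% between the first and the last rule, while the share of Cyp26b1 is higher in the tabled E12.5 plates under each.

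Crabp1 fell between the stages as Aldh1a1 did. Its level was 443, 450, 287 and 448 CPM in the E10.5 plates and 37.8, 0.479, 0 and 1.10 CPM in the E12.5 plates. The stages were far apart, and most of the E12.5 level came from plate a. Of 621 reads there, 399 were in 1 cell. The means were 407 ± 79.8 and 9.85 ± 18.7 CPM (SD, n = 4 plates each), with a log2 fold change of -5.59 ± 1.41 (SE, edgeR, adjusted p = 0.0391). Without plate a of E12.5 the log2 fold change was -9.60 (adjusted p = 0.000211). The call held in 9 of 18 alternatives and was lost without the neural-like and parathyroid-like cells, where the log2 fold change was -4.94 (adjusted p = 0.0805). At E10.5 a molecule of Crabp1 was found in 106 of 356 cells (29.8%, 95% interval 25.1% to 34.8%), from 18.2% in plate a to 36.3% in plate b. At E12.5 it was found in 10 of 355 cells, of which 7 were cells of plate c with 1 read each.

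Crabp2, whose protein carries retinoic acid to the nucleus, was at 308, 547, 432 and 313 CPM in the E10.5 plates and at 845, 1077, 464 and 498 CPM at E12.5. The stages overlapped, and the log2 fold change of 0.73 ± 0.29 was not past the threshold (SE, edgeR, adjusted p = 0.212). A molecule was found in 231 E10.5 cells and 279 E12.5 cells. Plate a of E10.5 stood apart with 25.0% of its cells against 74.7% to 84.7% in the other E10.5 plates and at most 89.9% at E12.5. That plate had the fewest molecules per cell, and over all E10.5 cells the median depth was 9075 molecules in cells with Crabp2 and 3880 in cells without. Plate a itself, with a molecule in 22 of 88 cells, gave many of the cells without. The part of depth was not tested. Rarb was at 0.955, 0.905, 1.63 and 1.46 CPM in the E10.5 plates, and in the later plates at 0.975 CPM in plate a and listed at 0 in the other 3. A molecule was found in 6 and 2 cells, and the log2 fold change was -2.53 ± 1.66 (SE, edgeR, adjusted p = 0.496). Without plate a of E12.5, which leaves every later plate at 0, the fitted value was -7.18 and depends on the prior count (edgeR, adjusted p = 0.0941). Without the neural-like and parathyroid-like cells it was -4.80 (edgeR, adjusted p = 0.126). The untabled plate b of E12.5 was at 6.74 CPM of Rarb, with a molecule in 3 cells, above the 0.437 to 2.12 CPM of the E10.5 first runs.

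The level in each cluster shows where these genes lay among the cells, given here as a description without a test. Aldh1a1 was at 101 CPM in cluster 1 and 26.3 CPM in cluster 4, with 54.9 to 135 CPM in the 3 plates that gave cluster 1 at least 5 cells. In cluster 4 the same 3 plates ranged from 0 to 47.6 CPM. It was listed at 0 in cTEC-like cluster 0, in the mTEC progenitor-like cells and in the parathyroid-like cells, which rest on 153, 29 and 42 cells. The leading genes of cluster 1 included Aurka and Cenpa, which act in mitosis, and those of cluster 4 included Wnt6, Pax8 and the collagen gene Col1a2. Of the marker lists, mesenchyme stood highest in cluster 4, with 4 of 8 markers at 10 CPM or more, beside 7 of 10 endodermal markers, and the part of mesenchymal cells in its levels was not tested.

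Cyp26b1 was highest in the cTEC-like cells of E12.5. It was at 210 CPM in cTEC-like cluster 2, led by Ppp1r27 and Adra1b with Tbata, Psmb11 and Ccl25 among its top 10 genes, and at 113 CPM in cTEC-like cluster 0, led by Six2 and Trpc4. Over the 4 plates these levels were 59.1 to 351 and 29.6 to 213 CPM, so the order of the cTEC-like clusters was within the spread between plates. In the mTEC progenitor-like cells it was at 1.08 CPM and at most 2.31 CPM in any plate, and in the parathyroid-like cells at 1.47 CPM and at most 2.52 CPM. Each of the 8 cTEC-like sums of a plate was above each of the 8 sums of the mTEC progenitor-like and parathyroid-like cells. A molecule was found in 31 of 111 cells of cluster 2 (27.9%, 95% interval 19.8% to 37.2%), 16 of 153 cells of cluster 0 (95% interval 6.10% to 16.4%), and none of the 29 mTEC progenitor-like or 42 parathyroid-like cells, which allows up to 10.3% and 7.14% of cells with a detected molecule and sets no limit on cells expressing the gene. A read was found in 5 mTEC progenitor-like and 7 parathyroid-like cells (17.2% and 16.7%), all without a molecule. In clusters 2 and 0 a read was found in 50 and 51 cells (45.0% and 33.3%), of which 31 and 16 had a molecule. The source of reads without a molecule was not tested. At E10.5 the level was 7.67 to 37.9 CPM in the unnamed clusters and the neural-like cells.

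Crabp1 was highest in the neural-like cells of E10.5 at 782 CPM, with 536 to 939 CPM in their 4 plates. In clusters 1, 4 and 5 it was at 253 to 340 CPM, and 165 to 363 CPM in their single E10.5 plates. Cluster 5 also held 10 E12.5 cells. The 6 of these in plate c were at 0, while the cell of plate a with 399 Crabp1 reads and 4 molecules was among them as well. Crabp1 was thus found in all 4 of the E10.5 clusters, with no E10.5 plate of clusters 1, 4 and 5 reaching the lowest neural-like plate. In the clusters of E12.5 it was at 7.65 CPM or less. Crabp2 was at 288 CPM in the neural-like cells and at 475 and 486 CPM in clusters 1 and 4, and here single plates overlapped. The 64 cells of cluster 5 in plate a of E10.5 were at 233 CPM, below the 370 CPM of the neural-like cells of that plate, while its 6 cells in plate c of E12.5 were at 1472 CPM. At E12.5 Crabp2 was at 662 to 885 CPM in the thymic clusters and at 50.0 CPM in the parathyroid-like cells, where the 4 plates gave 13.6 to 78.4 CPM, below every plate of the thymic clusters. Aldh1a3 was at 16.5 CPM in the parathyroid-like cells and at 3.34 CPM or less elsewhere, from 4 of 42 cells.

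**Figure D3:**
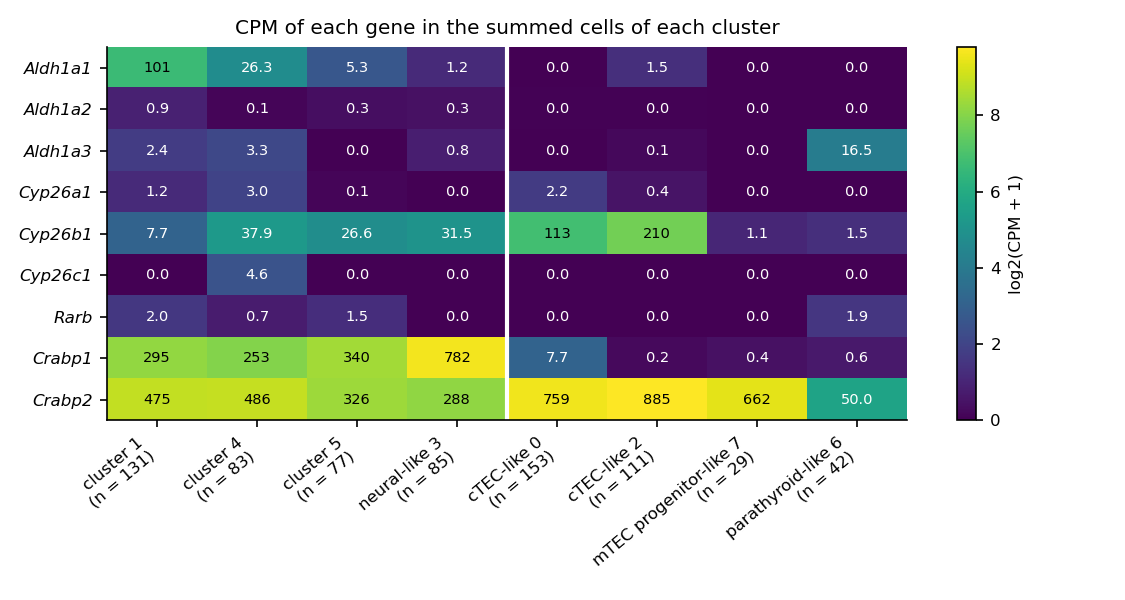
CPM of each gene in the summed cells of each cluster, with colour on the log2(CPM + 1) scale and n the number of cells. The white line separates the clusters made mostly of E10.5 cells, on the left, from those of E12.5. Cyp26b1 is at 113 and 210 CPM in the cTEC-like clusters and near 1 CPM in the mTEC progenitor-like and parathyroid-like cells, and Aldh1a1 is at 101 CPM in cluster 1.

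Whether synthesis and breakdown occurred in separate cells was asked at each stage. With at least 1 read of any Aldh1a gene counted, 7.95%, 37.4%, 17.6% and 18.5% of the cells of plates a to d at E10.5 had a synthesis enzyme. At E12.5 the shares were 5.49%, 2.22%, 3.53% and 3.37%, and no E12.5 plate reached an E10.5 plate. For a Cyp26 gene the shares were 10.2%, 19.8%, 10.6% and 7.61% at E10.5 and 28.6%, 32.2%, 37.6% and 34.8% at E12.5, again without overlap among these 8 plates. The mean share with a synthesis enzyme fell by 16.7 percentage points and that with a breakdown enzyme rose by 21.3 points, and each had an exact two-sided permutation p of 0.0286, the smallest that 4 against 4 plates allow (0.0429 after Benjamini-Hochberg adjustment over 3 shares). A share by reads can depend on depth, and median reads per cell were 130836 to 139308.5 in the E10.5 plates and 148048 to 209514 at E12.5. With each cell thinned to 40000 reads, the breakdown share rose by 12.53 points (exact permutation p = 0.0286, 0.0857 adjusted). The synthesis share then differed by -8.43 points (exact permutation p = 0.0571, 0.0857 adjusted). With a molecule required, the shares with a synthesis enzyme were 2.27%, 9.89%, 11.8% and 10.9% at E10.5 and 5.49%, 2.22%, 1.18% and 3.37% at E12.5, and plate a of E10.5 lay within the E12.5 range (exact permutation p = 0.0857, 0.129 adjusted). The molecule rule did not act alike on all genes. No E10.5 cell with under 8 reads of Aldh1a1 had a molecule of it. In plate a of E12.5, 4 cells had an Aldh1a2 molecule from at most 3 reads each. With at least 5 reads counted instead, the difference in the synthesis share was -4.78 points (exact permutation p = 0.0286, 0.0429 adjusted). Cells with a breakdown molecule numbered 1, 10, 5 and 6 in the E10.5 plates and 11, 11, 13 and 15 in the E12.5 plates, and their mean share was 7.98 points higher at E12.5 without overlap among these 8 plates (exact permutation p = 0.0286, 0.0857 after adjustment over 3 shares). In the untabled plate b of E12.5, 2 of 87 cells had a synthesis molecule and 1 (1.15%) a breakdown molecule, the latter within the 1.14% to 9.89% of the E10.5 first runs. With plate b and first runs alone, the share with a breakdown molecule was 4.54 points higher at E12.5 (exact permutation p = 0.222), and that with a breakdown read 14.3 points higher (p = 0.0317, adjusted 0.0476), with plate b at 10.3% inside the E10.5 range of 6.52% to 15.4%.

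No cell held molecules of both kinds. At E10.5, 31 cells had a synthesis molecule and 22 a breakdown molecule, and at E12.5 the numbers were 11 and 50. Were the kinds spread over the cells of a plate independently, the product of the shares would give 2.25 shared cells at E10.5 and 1.51 at E12.5. Both numbers are small, and the shortfall was not tested. With a single read counted, 8 cells at E10.5 and 2 at E12.5 had both kinds, where the products gave 10.3 and 4.25 cells. The ratios were 0.775 and 0.471, and over the plates they ranged from 0 to 1.89 at E10.5 and from 0 to 0.885 at E12.5, on both sides of 1 at E10.5. In these 10 cells the rarer kind had 1 read in 8 and 2 reads in 2. With at least 5 reads, 22 and 21 cells at E10.5 and 5 and 59 cells at E12.5 had a synthesis and a breakdown enzyme, and again none had both, where the products gave 1.47 and 0.744 cells. The share of cells with both kinds differed by -1.70 points between the stages (exact permutation p = 0.257). The plate ratios, compared on the linear scale in the 3 plates of each stage where the product reached 1 cell, had means of 0.828 and 0.528 (exact permutation p = 0.9, smallest possible 0.1).

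**Figure D4:**
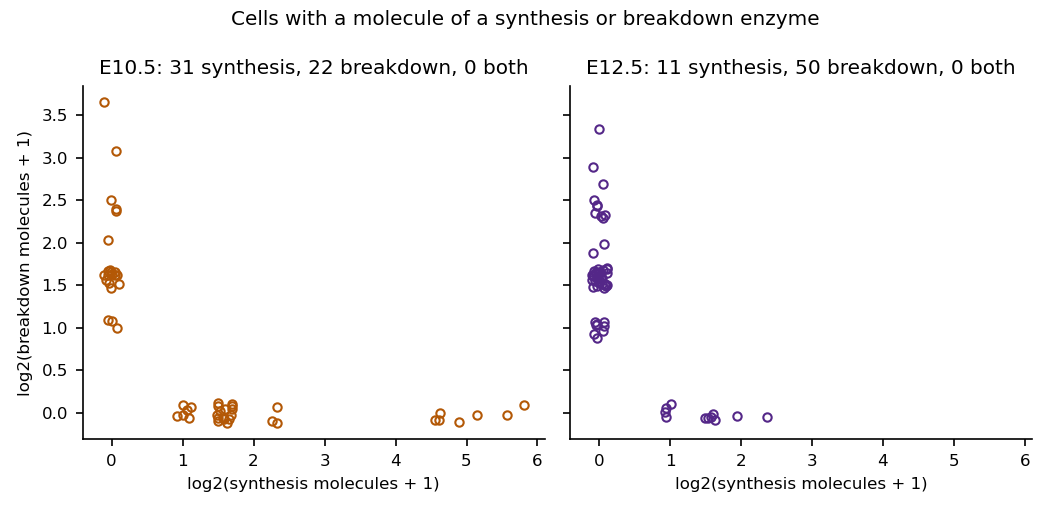
Cells with at least 1 molecule of a synthesis enzyme (x axis, Aldh1a1, Aldh1a2 and Aldh1a3 summed) or a breakdown enzyme (y axis, Cyp26a1, Cyp26b1 and Cyp26c1 summed), both as log2(molecules + 1) with a small random shift, for E10.5 on the left and E12.5 on the right. Every cell lies along one axis, and the cells with most synthesis molecules are at E10.5.

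The clusters placed the kinds of enzyme partly together and partly apart. In cluster 1, 21 of 131 cells had a synthesis molecule and 10 a breakdown molecule, and in cluster 4 the numbers were 8 and 7 of 83. In the neural-like cells they were 3 and 4 of 85. In the cTEC-like clusters 1 of 153 and 3 of 111 cells had a synthesis molecule and 18 and 32 a breakdown molecule. The parathyroid-like cells had 4 and 0 of 42, all 4 with Aldh1a3.

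The binding proteins were found in cells with either kind of enzyme. At E10.5, 8 of the 17 cells with an Aldh1a1 molecule and 7 of the 15 with a Cyp26b1 molecule had one of Crabp1, where the products of the shares gave 5.60 and 5.04 cells. Crabp2 was found in 16 of the 17 Aldh1a1 cells and 10 of the 15 Cyp26b1 cells (12.7 and 10.9 by the product). At E12.5, 42 of 47 cells with Cyp26b1 had Crabp2 (37.4 by the product). Crabp1 and Crabp2 shared 73 cells at E10.5, close to the product of 73.9. Cells with a molecule of either enzyme were deeper than cells without, with medians of 9935 and 7806 molecules for Aldh1a1 at E10.5 and of 7161 and 6107.5 for Cyp26b1 at E12.5, and the part of depth was not tested.

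Genes with the most similar pattern were sought over 28 sums of at least 5 cells of a cluster in a plate, which share libraries and stage. Crabp1 was most like Hoxb5, Gng2 and Nefl (Pearson's r of log2 values 0.966, 0.939 and 0.935), of which Nefl encodes a neurofilament. Cyp26b1 was most like Ankrd6, Sh3pxd2a and Enho (0.782, 0.771 and 0.737). For Aldh1a1 the genes were Arl4c, Pax8 and Hspe1 (0.758, 0.725 and 0.702), and for Crabp2 they were D930015E06Rik, Cnn3 and Nav2 (0.837, 0.823 and 0.804).

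The rest of the pathway was followed with a list of 42 genes, of which 31 passed the filter, 1 was higher and 6 were lower at E12.5, beside 3.8% higher and 2.44% lower over all genes tested. The list's median log2 fold change was -0.0070, and that of all 11499 genes tested was 0.0013. Responsive genes held most of the calls, with 4 of 12 tested lower and none higher and a median of -1.85. Hoxb1, a Hox gene induced early by retinoic acid, was at 32.1 to 58.1 CPM in the E10.5 plates and at most 0.122 CPM at E12.5 (log2 fold change -9.47 ± 0.70, SE, edgeR, adjusted p = 2.21e-05). Nr2f2, an orphan nuclear receptor, was at 66.9 to 105 CPM against 0.710 to 3.53 CPM (-5.64 ± 0.48, adjusted p = 4.59e-05). Both were called in all 18 alternatives, and on molecules their log2 fold changes were smaller, -4.14 ± 0.67 and -3.37 ± 0.68 (SE). Hoxb3 was at 12.1 to 18.9 CPM against 0.0645 to 0.342 CPM (-5.96 ± 0.83, adjusted p = 0.00135), and the call was lost in first runs with plate b of E12.5 (-3.97, adjusted p = 0.0718). Hoxb5 was at 63.1 to 108 CPM against 0 to 5.48 CPM (-6.01 ± 1.36, adjusted p = 0.0230). The Hoxb5 call held in 11 of 18 alternatives and was lost without the neural-like and parathyroid-like cells (-4.97, adjusted p = 0.0810), and without plate a of E12.5 the log2 fold change was -10.63. The neural-like cells had the highest level of both, 53.8 CPM for Hoxb3 and 198 CPM for Hoxb5.

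Among genes upstream of the enzymes, Rbp4, the retinol carrier of blood plasma, had 4113 reads at E10.5 and 0 at E12.5. Its levels at E10.5 were 0.0795, 126, 115 and 76.5 CPM, and since plate a had next to none it did not pass the filter. Without the filter its adjusted p by edgeR was 0.0148. With the E10.5 plates pooled (79.3 CPM), it was at least 1693-fold above a floor of 3 reads over the E12.5 plates. That bound leaves out the spread between plates and does not hold for plate a of E10.5. A molecule of Rbp4 was found in 43 E10.5 cells, and its level was highest in the neural-like cells, at 162 CPM. Dhrs3, which turns retinaldehyde back into retinol, stood at 0 to 2.41 CPM at E10.5 and 12.6 to 15.3 CPM at E12.5, and Rarg, a retinoic acid receptor, at 0 to 1.80 and 6.45 to 18.3 CPM. Neither pair of stages overlapped, yet neither gene was past the threshold by edgeR (log2 fold changes 3.45 ± 1.25 and 3.91 ± 1.39, adjusted p = 0.161 and 0.151). Of 5 receptors and carriers tested none was called by edgeR, and 1, Rarg, had an unadjusted p under 0.05, as had 2009 of all 11499 genes tested. DESeq2, which called 1269 genes where edgeR called 718, called Rarg (adjusted p = 0.0147) and also Dhrs3 (adjusted p = 0.0213). Ncoa1, a coactivator of nuclear receptors, was higher at E12.5, at 6.32 to 24.5 CPM against 0.835 to 2.91 CPM (2.88 ± 0.75, adjusted p = 0.0429), and held in 4 of 17 alternatives.

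Of the 2 pharyngeal genes that retinoic acid is known to restrict, Fgf8, a signalling factor of the pharyngeal epithelium, was at 33.7 to 61.0 CPM at E10.5 and 0 to 0.853 CPM at E12.5 (log2 fold change -7.12 ± 1.07, SE, edgeR, adjusted p = 0.00227). Tbx1, a T-box factor of the pharynx, was at 17.3 to 58.3 and 1.55 to 25.0 CPM, which overlapped (-1.74 ± 0.76, adjusted p = 0.262), but on molecules it was called lower at E12.5 (-2.02 ± 0.47, edgeR, adjusted p = 0.00670).

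**Figure D5:**
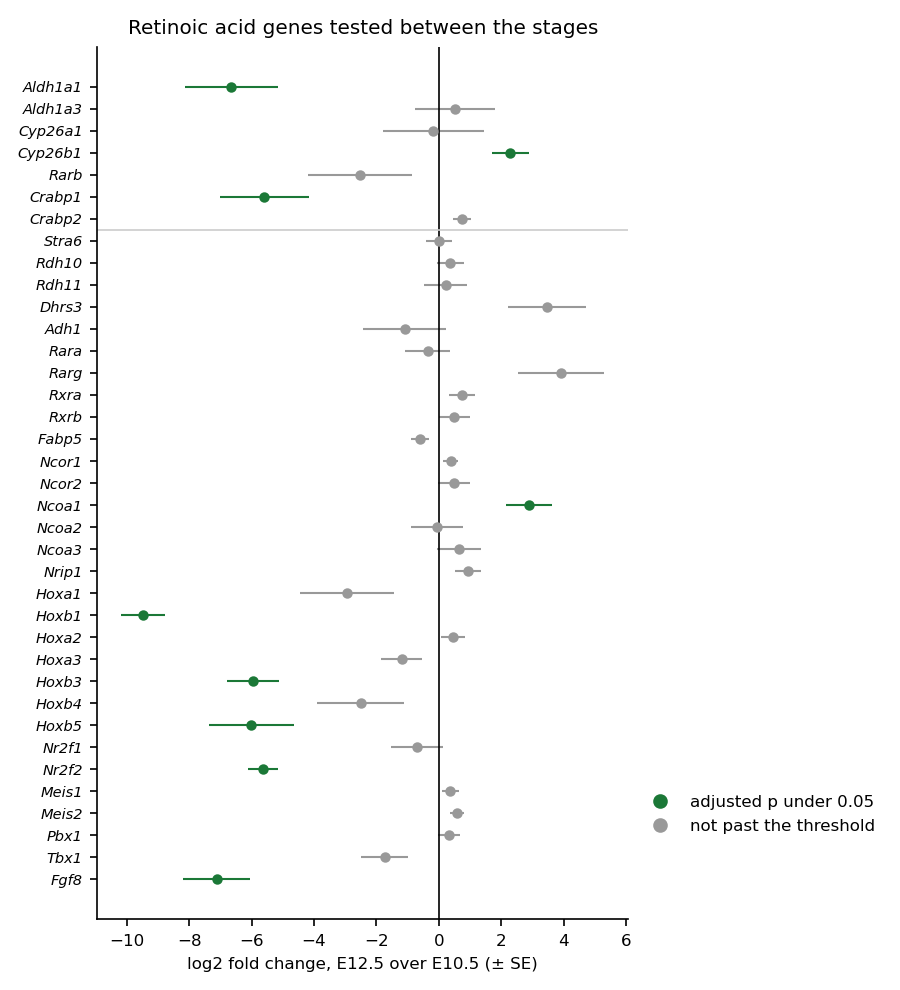
Log2 fold change of E12.5 over E10.5 for the 7 described genes that passed the filter (above the line) and the other pathway genes shown (below), with bars for the standard error. Green points have an adjusted p under 0.05 by edgeR, 3 above and 6 below the line, and 2 of these, Cyp26b1 and Ncoa1, lie to the right of 0.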

How the data were processed

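Wild type EPCAM+PLET1+ cells were sorted from thymic primordia into wells of 96-well plates for a BD Precise whole transcriptome assay, which the sample titles call SmartSeq2. Per the file headers the authors ran the BD Precise WTA Analysis Pipeline 2.0 on GRCm38.p6 with GENCODE vM18, while the submitters' processing notes name GRCm38.p5, with FastQC, STAR and HTSeq, without versions. The authors deposited raw read counts, not normalized, and, for each of 19 sequencing runs, a read table and molecule counts corrected by the RSEC and DBEC steps of the pipeline. The deposited table equalled the sum of 2 runs of each plate. Molecules were summed over the same runs, so that 1 molecule can count in both. Plate b of E12.5 had 1 run, was not in that table and was used where stated.

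Cells were filtered on protein-coding genes as the study's methods describe (21964 of 54179): mitochondrial share at most 50%, 40000 to 400000 reads, 500 to 5000 features. The study's methods give 4 plates and 376 cells collected per stage. The table, which leaves out the 92 wells of plate b of E12.5, holds 366 and 367 wells, of which 356 and 355 passed. Single cells were sorted into wells, so no doublets were called. CPM were computed from the protein-coding reads of the summed cells.

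Plate sums were compared with edgeR 4.0.16 (limma 3.58.1, TMM, filterByExpr, robust quasi-likelihood fit, threshold 0.05), with DESeq2 1.42.0 as the alternative test. Each SE given with edgeR was computed as the absolute log2 fold change over the square root of the F statistic of its test. Where a stage was at or near 0, as for Hoxb1 at E12.5, both fold change and SE depend on the prior count. Such an SE may understate the uncertainty. Tested on simulated data for the E12.5 against E10.5 comparison of 11499 genes, the fit recovered 3 of 67 genes changed 2-fold, 19 of 67 changed 4-fold and 34 of 66 changed 8-fold, with 1 false call. Shares were compared by two-sided exact permutation tests over plates. The log2 test of the ratios could not be run because 2 of the 6 plates had no shared cell. Thinning drew 40000 reads per cell. Intervals are exact binomial, and a count of 0 was taken to allow 3.

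Cells were clustered in R 4.3.3 by SCTransform (sctransform 0.4.2, Seurat 5.3.0, SeuratObject 5.2.0, 3000 variable genes, of which 14 genes of the lists were removed, 20 components, 20 neighbours, resolution 1.3, seed 1) and named from marker lists where 3 or more markers reached 10 CPM (pseudocount 10). The resolution was the first in rising steps that gave at least 8 clusters, so their number is not a result. Clusters 1, 4 and 5 stayed unnamed because endodermal markers did not lead all of them, and cluster 4, which the mesenchyme list led, was not named from it, choices made after they had been seen. Shares and figures were made in Python 3.11.15 (scipy 1.17.1, numpy 2.4.6, matplotlib 3.10.9, pandas 2.3.3).

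The genes and lists were chosen with earlier results of these data known. Named were the 9 genes, the list genes past the threshold, and, for each of the 9 with at least 20 CPM at a stage, the 3 genes with the highest Pearson's r of log2(CPM + 1), among genes of at least 20 CPM. Other genes were named after their values were seen. Of the list genes past the threshold 1 is counted but not reported here.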

Additional observations from a re-analysis of the deposited data

Results flagged for a closer look

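Of 52 sets of 4 plates examined, 13 had 1 plate farther from the others than Dixon's critical value allows. The chance rate of about 1 in 20 holds for independent, normally distributed values and is no measure here. CPM and share of cells of the same gene were separate sets. A set with all plates but 1 at 0 was flagged whatever the value of that plate. At E10.5, plate c held the only Cyp26c1 (4.03 CPM, 1.18% of cells with a read) and the lowest Crabp1 (287 CPM), and plate a had the lowest share of cells with a Crabp2 read (30.7%). At E12.5, plate e was highest for Aldh1a1 (1.87 CPM) and lowest for Hoxb3 (0.0645 CPM). Plate a of E12.5 was highest for Aldh1a2 (0.366 CPM, 4.40% of cells), Rarb (0.975 CPM, 2.20% of cells), Crabp1 (37.8 CPM) and Hoxb5 (5.48 CPM), and plate d had the lowest share for Aldh1a3 (1.18%).

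Plate b of E12.5, which had 1 run and was not in the count table, held 87 cells after filtering and 6527627 reads. Its levels were 7.35 CPM for Aldh1a1, 2.14 CPM for Aldh1a3, 6.74 CPM for Rarb, 4.60 CPM for Crabp1 and 857 CPM for Crabp2. In the first runs of the other E12.5 plates Aldh1a1 was at most 0.953 CPM and Rarb at most 1.09 CPM, while the E10.5 first runs held 3.35 to 63.2 CPM of Aldh1a1 and 0.437 to 2.12 CPM of Rarb. Cyp26b1 was at 23.6 CPM, below the 63.6 to 269 CPM of the other E12.5 plates and within the 7.97 to 42.2 CPM of the E10.5 plates.

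In 36 wells that are in the run files but not in the count table, and that the labels do not describe, there were 34 reads of Aldh1a1, 12 of Aldh1a3, 26 of Crabp1 and 8 of Crabp2. Most of these Aldh1a1 reads were in E12.5 wells, with 14 in a well of plate e and 13 in a well of plate d. These wells held 38 to 37257 protein-coding reads each.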

How the results depend on the processing

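The number of genes called was 718, and 1269 with DESeq2. Leaving out single plates gave 496 to 815. Of the 9 genes 3 were called, 1 with all genes of the table in the fit and 0 to 3 when single plates were left out, with 0 without plate d of E10.5. Of the other pathway genes 7 were called, and 4 to 7 without single plates. The 4 plates per stage share the letters a, c and d, and the labels do not say what a letter stands for. Taken over all genes tested, same-letter plates did not deviate together (r of 0.059, -0.021 and 0.020). A link between such plates in part of the genes was not tested. With the letter as a replicate block the counts were 215, 1 and 2, and in the same plates without the block 382, 1 and 4. The directions of Aldh1a3 and Cyp26a1 turned. The log2 fold change of Aldh1a3 was -0.091 without plate c of E12.5 and up to 1.45 without other single plates. That of Cyp26a1 was -0.83 to 0.64 without single plates, with 0.64 without plate c of E10.5, 0.07 without plate d of E10.5, 0.22 without plate c of E12.5 and 0.17 with the block. The cause of these changes was not tested.

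The difference in the share of cells with a synthesis enzyme, -16.7 points, was -8.43 after thinning, -5.63 with a molecule required, -8.13 with a molecule and without neural-like and parathyroid-like cells, and -4.78 with a molecule in the first run, each past no threshold. With all wells, without neural-like and parathyroid-like cells and with at least 5 reads it was -17.2, -18.8 and -4.78 (exact permutation p = 0.0286 each). With plate b of E12.5 it was -9.62 in first-run reads (exact permutation p = 0.0317, 0.0476 adjusted) and -4.88 in first-run molecules (p = 0.0476, 0.143 adjusted), both added after seeing the data. Without single plates it was -20.8 to -11.0, that for breakdown 19.8 to 23.8 and that for both kinds -2.45 to -0.986, where 3 against 4 plates allow no p under 0.0571. That for breakdown, 21.3 points, was 12.53 after thinning (exact permutation p = 0.0286, 0.0857 adjusted). It was 4.54 with a molecule in the first run and plate b of E12.5 included, an alternative added after seeing the data (exact permutation p = 0.222). The ratio of shared cells to the product at E12.5, 0.471, was 0 with at least 5 reads, under each rule that required a molecule and in first runs with plate b, and 0.321 to 0.625 without single plates. At E10.5 the ratio, 0.775, was likewise 0 with at least 5 reads and under each rule that required a molecule. It was 0.394 in first-run reads and 0.572 to 1.11 without single plates.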
